A study of Mus musculus with 7 samples.

Results

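Acetylcholine reaches the cerebral cortex from neurons of the basal forebrain and acts through nicotinic receptors, which are ion channels built from alpha and beta subunits, and muscarinic receptors, which signal through G proteins. From the cortex RNA-seq counts 10 such genes were chosen by symbol, namely Chrna3, Chrna4, Chrna5, Chrna7 and Chrnb2 (nicotinic subunits), Chrm1, Chrm2, Chrm3 and Chrm4 (muscarinic receptors) and Ache, which encodes acetylcholinesterase, the enzyme that splits acetylcholine in the synaptic cleft. The counts covered 23413 gene symbols, and all 10 were among the 15881 that passed the filter on low counts. The choice was made with the comparison of the diets in view, so diet values of these 10 genes are given as a description, with no p-value for any of them, and counts of calls among them only stand beside the share of all genes called.

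The mice were of the strain B6.Cg-Tg(APPswe,PSEN1dE9)85Dbo/Mmjax, called APP/PS1, which carries a mutant human amyloid precursor protein gene and a mutant presenilin 1 gene. The control diet was given to 4 mice (CD, called SD in the sample labels; 74% of energy from carbohydrate, 10% from protein and 16% from fat) and the ketogenic diet to 3 (KD; less than 0.5% carbohydrate, 10% protein and 90% fat), from 6 months of age for 7 months, and cortex was collected at 13 months. Every mouse of both diets carried the transgenes, and no wild-type cortex was among the libraries. The study asks whether KD alters synaptic plasticity in these mice.

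Each value is the number of reads counted on 1 gene in the cortex of 1 mouse. CD totals ran from 29905345 to 36614954 counts and KD totals from 22272883 to 34028808, and values below are counts scaled to a library total of 1000000 (CPM). Replicates of a diet were not copies of each other (chi-square per gene from 15.8 to 68.5 over the 9 pairs compared, where sampling noise alone gives about 1). On the first principal component of all genes, CD replicate 4 (39.5) and KD replicate 3 (46.7) stood apart from the other libraries (−25.2 to 2.39). Xist, transcribed from the inactive X chromosome of females, was high in CD replicates 1 and 2 and KD replicates 1 and 2 (7.92 to 9.04 log2 CPM) and low in the other 3 (−1.40 to 1.65). The labels give no sex.

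The cortex label was checked with marker lists. All 7 markers of cortical excitatory neurons were detected, with summed levels of 1331 to 1966 CPM in CD and 1556 to 1955 CPM in KD. Markers of the basal forebrain cholinergic neurons themselves were low (2.64 to 7.95 CPM in sum over 7 genes, 3 of which passed the filter on low counts), with Lhx8 at 0 counts in CD replicate 1 and KD replicate 2, Isl1 at 0 counts in KD replicate 2 and Slc18a3 at 0 counts in KD replicate 3. In bulk tissue, fewer cells of a type and less RNA per cell cannot be told apart.

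Chrna4 and Chrnb2 encode the 2 subunits of the alpha4beta2 receptor, the main high-affinity nicotine receptor of the brain. The bases before their start sites are shown, from RefSeq (GRCm38.p6), without bases that GENCODE M21 annotates as exon. Any part of these bases in the diet values below was not tested. The Chrna4 stretch lies at chr2:181039306-181039427 (minus strand, 122 bases), in the first intron of a longer annotated transcript, and the Chrnb2 stretch at chr3:89764633-89764882 (minus strand, 250 bases). Capitals mark the GC box (GGGCGG or CCGCCC, a motif bound by Sp1) and the short form of the cAMP response element (TGACG or CGTCA, the core of the motif bound by CREB).
Chrna4: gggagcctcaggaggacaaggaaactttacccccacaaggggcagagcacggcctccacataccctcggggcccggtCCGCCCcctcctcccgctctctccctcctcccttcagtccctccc
Chrnb2: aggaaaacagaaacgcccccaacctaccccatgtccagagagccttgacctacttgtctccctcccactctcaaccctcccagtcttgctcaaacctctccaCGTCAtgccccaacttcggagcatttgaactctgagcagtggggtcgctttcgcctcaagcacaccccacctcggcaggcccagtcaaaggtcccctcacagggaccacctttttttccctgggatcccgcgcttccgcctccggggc

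In windows of 250 bases before the start site, RefSeq gave 10 windows for 9 of the 10 genes. A GC box on either strand was present in 7 of the 10 windows, where 32.7% of all 32851 windows held it. GC content ran from 40.0% (the outer start site of Chrna5) to 74.4% (Chrna4), and 8 of the 10 windows lay above the median of all windows (52.4%). The whole Chrna4 window held 3 GC boxes and the Chrnb2 window none. The short cAMP response element was in 2 windows (Chrnb2 and the outer start site of Chrna5), where 17.8% of all windows held it. The full element (TGACGTCA, which contains the short form) was in 0 of the 10, where 1.55% of all windows held it. These matches describe letters in the windows and do not show that a factor bound there.

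Levels were first compared between the genes, over all 7 libraries and without regard to diet. To set genes beside each other, the CPM of each gene were divided by its exon length in kilobases (RPKM). In the order of the mean, Chrm4 had 29.2 RPKM (24.4 to 36.3 over the libraries), Chrm1 17.8 (16.4 to 20.01), Chrm3 12.6 (7.39 to 14.5), Chrnb2 8.52 (7.01 to 9.93), Chrna4 6.99 (4.41 to 11.7), Ache 4.61 (3.43 to 5.82), Chrna7 4.47 (3.51 to 5.90), Chrm2 2.89 (1.48 to 3.80), Chrna5 1.63 (0.704 to 2.72) and Chrna3 0.106 RPKM (0.0406 to 0.239). Muscarinic receptors thus held the first 3 places. Among 14843 tested genes with a length, Chrm4 was at or above 89.7% of them, Ache at or above 49.7% and Chrna3 at or above 1.96%.

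Neighbours in this order were compared within libraries by an exact two-sided sign-flip permutation test on log2 RPKM, with Benjamini-Hochberg adjustment over the 9 pairs; the smallest p that 7 libraries allow is 0.0156. Chrm4 above Chrm1, Chrm1 above Chrm3, Chrna7 above Chrm2 and Chrna5 above Chrna3 held in 7 of 7 libraries each (exact p = 0.0156, adjusted 0.0352). Chrm3 above Chrnb2 and Chrna4 above Ache held in 6 of 7 libraries each (exact p = 0.0312, adjusted 0.0469). The adjusted threshold was not passed by 3 pairs, namely Chrnb2 and Chrna4 (mean log2 difference 0.33 ± 0.41 SD, n = 7, adjusted exact p = 0.0879), Ache and Chrna7 (0.05 ± 0.41, adjusted exact p = 0.781) and Chrm2 and Chrna5 (0.88 ± 0.76, adjusted exact p = 0.0804).

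The GENCODE model of Chrm4 holds 1440 bases of coding sequence alone and starts at chr2:91927249. RefSeq has a start site further upstream, just after chr2:91922188. Any exon upstream of the GENCODE start is in neither length used here. With the 2587 bases from the GENCODE start to the RefSeq end, the level of Chrm4 was 16.3 RPKM (13.6 to 20.2), which put it between Chrm1 and Chrm3. None of the 9 neighbour comparisons then passed. Neighbours that did not involve Chrm4 kept their exact p in the sign-flip test, and those that had passed failed only through the adjustment over the 9 pairs. Leaving out 1 library gave 0 passing pairs in 6 of 7 cases and 6 without KD replicate 3, where 6 libraries allow no exact p under 0.03125.

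**Figure D1:**
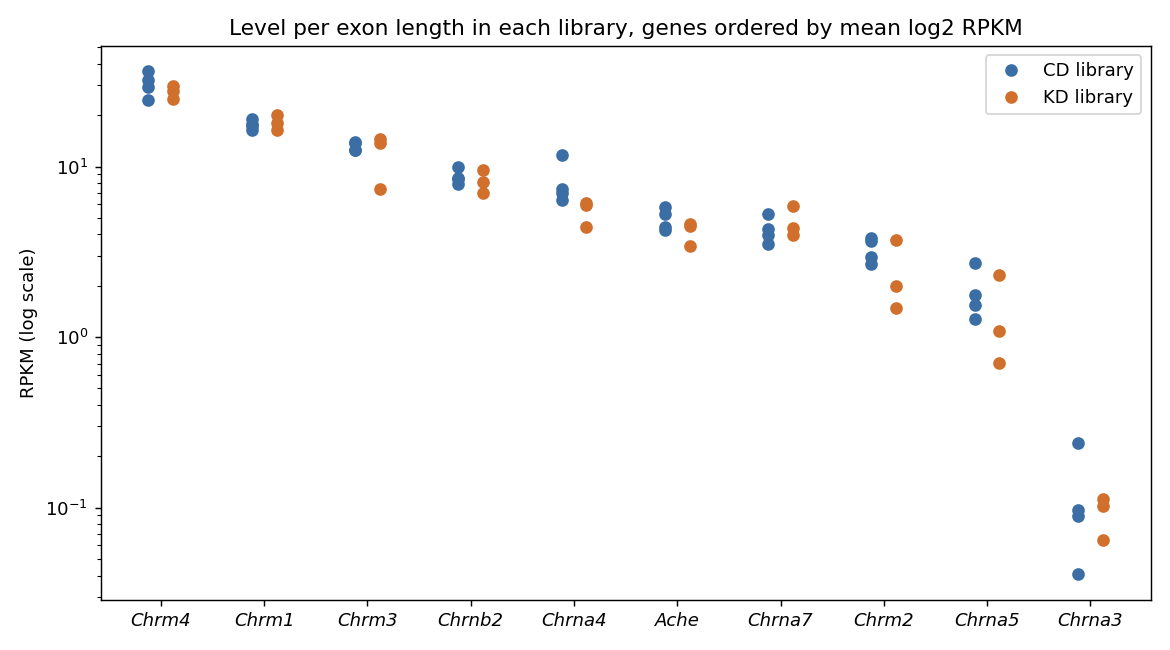
Level of each of the 10 genes in each library in RPKM (log scale), with CD libraries in blue and KD libraries in orange, ordered by mean log2 RPKM. Chrm4, Chrm1 and Chrm3 lead, Chrna3 lies between 0.0406 and 0.239 RPKM, and single libraries stand away from the rest for Chrna4 (11.7 RPKM in CD replicate 4) and Chrm3 (7.39 RPKM in KD replicate 3).

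For KD against CD, 8 of the 10 genes had a log2 fold change below 0 and 2 above, where 51% of all tested genes were below 0. Their median log2 fold change was −0.19, beside −0.0033 over all tested genes. None of the 10 had a raw p of at most 0.01 in edgeR's quasi-likelihood test, a call that 0.321% of all tested genes received (0.17% lower in KD). A raw p under 0.05 was found for 1 of the 10, lower in KD, as for 3.19% of all tested genes (1.52% lower in KD). The diets' CPM ranges were apart for 1 of the 10 (Chrna4), where they were apart for 4.2% of all tested genes (2.56% lower in KD). The count at a raw p of at most 0.01 was also 0 of 10 by DESeq2, which called 0.758% of all tested genes. It was 0 of 10 by edgeR's likelihood-ratio test, which called 0.649% of them. Without KD replicate 2 it was 1 of 10, in a fit that called 0.597% of all tested genes (96 of 16087). The count over all genes also depended on which library was left out. No gene of the whole table had an adjusted p under 0.05 in edgeR's quasi-likelihood test (smallest 0.979) or by DESeq2, and the likelihood-ratio test and the fit that included Xist gave 1 such gene each. Of the marker lists for other cell types, cortical interneurons were narrowly apart by diet in their sum (851.2 to 1052 CPM in CD and 722 to 850.7 CPM in KD over 6 genes). Of these 6, Gad1, which makes GABA, had ranges that did not overlap (471 to 681 CPM in CD and 399 to 454 CPM in KD). The 6 did not all move one way, with log2 fold changes of −0.82 (Pvalb), −0.37 (Gad1), −0.07 (Vip), −0.05 (Lhx6), 0.07 (Gad2) and 0.15 (Sst). None of the 6 had a raw p of at most 0.01 in edgeR's quasi-likelihood test, and the part of this list in the values of the 10 genes was not tested.

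**Figure D2:**
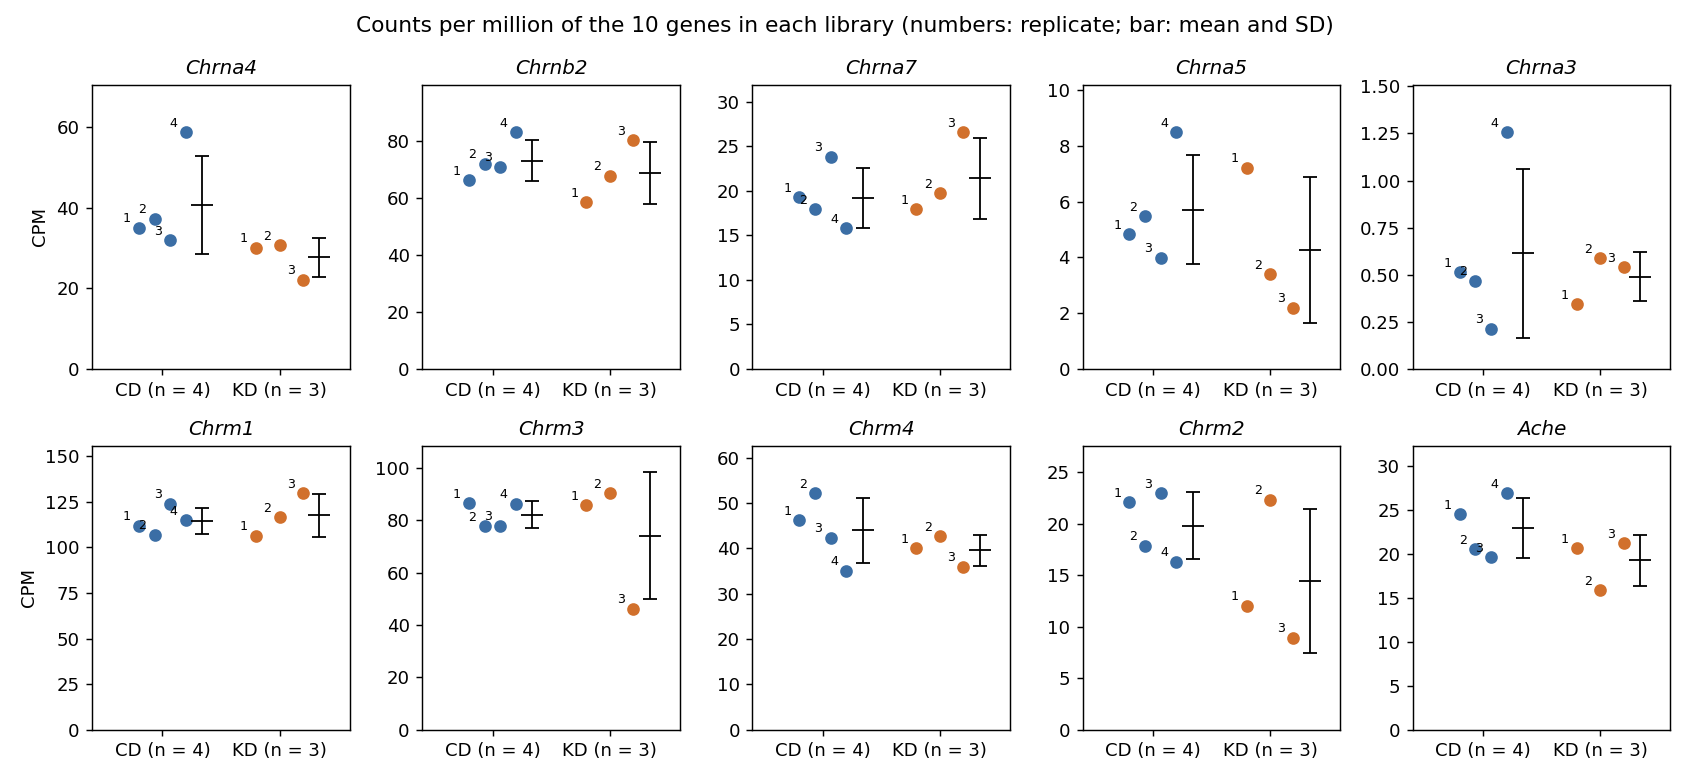
CPM of each of the 10 genes in every library, with CD libraries in blue and KD libraries in orange, numbered by replicate; the bar beside each group is its mean and SD. The diets' values are apart for Chrna4 alone, where CD lies between 31.9 and 58.7 CPM and KD between 22.1 and 30.7 CPM.

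Among the nicotinic subunits, Chrna4 (chr2:181018380-181043546, minus strand), the ligand-binding subunit of the alpha4beta2 receptor, was the lowest in KD relative to CD. It had 35.0, 37.2, 31.9 and 58.7 CPM in CD replicates 1 to 4 and 30.1, 30.7 and 22.1 CPM in KD replicates 1 to 3. Every KD library lay below every CD library, but CD replicate 3 and KD replicate 2 were close together, and the ends of both ranges were the libraries that stood apart. The means were 40.7 ± 12.2 CPM (SD, n = 4) in CD and 27.6 ± 4.78 CPM (SD, n = 3) in KD, a log2 fold change of −0.54 (standard error 0.22). Without CD replicate 4 the log2 fold change was −0.33, in the 4 libraries with high Xist it was −0.24, and without both CD replicate 4 and KD replicate 3 it was −0.18.

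Chrnb2 (chr3:89746195-89764632, minus strand), the beta partner of Chrna4, showed no such gap. Its values were 66.3, 72.2, 71.1 and 83.2 CPM in CD and 58.7, 67.9 and 80.5 CPM in KD. The ranges overlapped over most of their width, and both libraries that stood apart were high. The means were 73.2 ± 7.15 CPM (SD, n = 4) and 69.0 ± 10.9 CPM (SD, n = 3), a log2 fold change of −0.07 (standard error 0.11). Exons of Chrnb2 share 1365 bases (16.3% of its exon length) with Adar on the other strand, and the strand setting of the counting is not given in the sources used here.

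The balance between the 2 subunits had its extremes in the same libraries as Chrna4, which is the upper term of the ratio, but did not set the diets apart. The ratio of Chrna4 to Chrnb2 in RPKM was 0.881, 0.860, 0.750 and 1.18 in CD replicates 1 to 4 and 0.854, 0.755 and 0.459 in KD replicates 1 to 3. Between 0.750 and 0.881 lay 5 libraries, with CD replicate 4 above and KD replicate 3 below them. The diets overlapped, with means of 0.917 ± 0.182 (SD, n = 4) in CD and 0.689 ± 0.206 (SD, n = 3) in KD.

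Chrna5 encodes an accessory subunit that joins alpha4beta2 receptors, for example in neurons of the deep cortical layers. It had 4.84, 5.48, 4.00 and 8.49 CPM in CD and 7.23, 3.41 and 2.20 CPM in KD. KD replicate 1 exceeded 3 of the 4 CD libraries while KD replicate 3 was the lowest of all 7, so the KD libraries varied among themselves more than the diets differed (coefficient of variation 61.3% in KD). The log2 fold change was −0.40 (standard error 0.41), which moved to −0.998 without KD replicate 1 and to −0.08 without KD replicate 3.

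Chrna3, a subunit of peripheral ganglia and of the medial habenula, had few counts. Its counts were 18, 14, 7 and 46 in CD and 8, 20 and 12 in KD, that is 0.513, 0.468, 0.214 and 1.26 CPM and 0.342, 0.588 and 0.539 CPM. The CD libraries varied widely (coefficient of variation 73.3%), and the log2 fold change of −0.30 (standard error 0.58) became 0.30 without CD replicate 4. Chrna5 and Chrna3 lie side by side on chromosome 9 with Chrnb4 (2331 bases between Chrna5 and Chrna3 and 1591 bases between Chrna3 and Chrnb4). Chrnb4, the usual beta partner of Chrna3, had at most 6 counts in any library.

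Chrna7 (chr7:63098692-63212569, minus strand) forms receptors of 1 kind of subunit that pass calcium and bind amyloid-beta in some assays. It was one of the 2 genes with a log2 fold change above 0. It had 19.3, 17.9, 23.8 and 15.8 CPM in CD and 18.0, 19.7 and 26.6 CPM in KD. The ranges overlapped, with KD replicate 3 the highest and CD replicate 4 the lowest of all libraries, the opposite of their places for Chrna4. KD stood 0.16 above CD on the log2 scale (standard error 0.18), and −0.01 from it once KD replicate 3 was left out.

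Of the summed RPKM of the 5 nicotinic genes, Chrnb2 took 35.4% to 46.4%, Chrna4 21.3% to 41.6% and Chrna7 12.5% to 28.5%. Chrna4 took its largest share in CD replicate 4 and its smallest in KD replicate 3, and Chrna7 the reverse. In the other 5 libraries the share of Chrna4 stayed between 29.7% and 33.9%.

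Among the muscarinic receptors, Chrm1 (chr19:8663789-8683587, plus strand), the main Gq-coupled receptor of cortical pyramidal cells, varied little between libraries (coefficient of variation 6.29% in CD and 9.99% in KD). It had 112, 107, 124 and 115 CPM in CD and 106, 117 and 130 CPM in KD. The ranges overlapped, with means of 114 ± 7.20 CPM (SD, n = 4) and 118 ± 11.8 CPM (SD, n = 3) and a log2 fold change of 0.05 (standard error 0.09).

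Chrm3 (chr13:9875486-10360847, minus strand), the second Gq-coupled receptor, differed in 1 library. It had 86.7, 77.9, 77.9 and 86.5 CPM in CD and 86.0, 90.5 and 46.2 CPM in KD. KD replicates 1 and 2 lay close to or above the highest CD values, and KD replicate 3 far below all other libraries. The log2 fold change was −0.13 (standard error 0.21) and turned to 0.12 without KD replicate 3. The ratio of Chrm3 to Chrm1 in RPKM was 0.652 to 0.838 in 6 libraries and 0.369 in KD replicate 3.

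Chrm2 (chr6:36388084-36528414, plus strand), a Gi-coupled receptor that acts as the autoreceptor of cholinergic endings and is also made by cortical cells, had the second lowest log2 fold change of the 10. It had 22.1, 17.9, 23.0 and 16.3 CPM in CD and 12.1, 22.3 and 8.93 CPM in KD. In 2 KD libraries it was below every CD library, and KD replicate 2 was within the CD range. The means were 19.8 ± 3.23 CPM (SD, n = 4) and 14.4 ± 7.01 CPM (SD, n = 3), a log2 fold change of −0.44 (standard error 0.30), which was −0.92 without KD replicate 2 and −0.18 without KD replicate 3.

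Chrm4 (chr2:91927249-91928688, plus strand), the other Gi-coupled receptor, is abundant in the striatum. It had 46.2, 52.2, 42.4 and 35.1 CPM in CD and 40.0, 42.7 and 36.0 CPM in KD. The KD values lay inside the CD range, with a log2 fold change of −0.14 (standard error 0.15), which was −0.04 without CD replicate 2, −0.07 without KD replicate 3 and −0.25 without CD replicate 4. Together the Gq-coupled Chrm1 and Chrm3 took 42.4% to 53.8% of the summed RPKM of Chrm1 to Chrm4 in CD and 49.3% to 50.9% in KD. With the longer Chrm4 length this share was 55.6% to 66.0% over all libraries. Chrm5 was left out of these sums.

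Ache (chr5:137287519-137294466, plus strand) had 24.5, 20.5, 19.6 and 26.9 CPM in CD and 20.7, 15.9 and 21.2 CPM in KD. The values of KD replicates 1 and 3 fell between CD values, and KD replicate 2 was the lowest of all. The means were 22.9 ± 3.42 CPM (SD, n = 4) and 19.2 ± 2.93 CPM (SD, n = 3), a log2 fold change of −0.24 (standard error 0.14). The estimate was −0.13 without KD replicate 2 and −0.23 without both KD replicate 3 and CD replicate 4, and it stayed below 0 in all 17 alternatives that were run, as did Chrna4, Chrm2 and Chrm4.

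**Figure D3:**
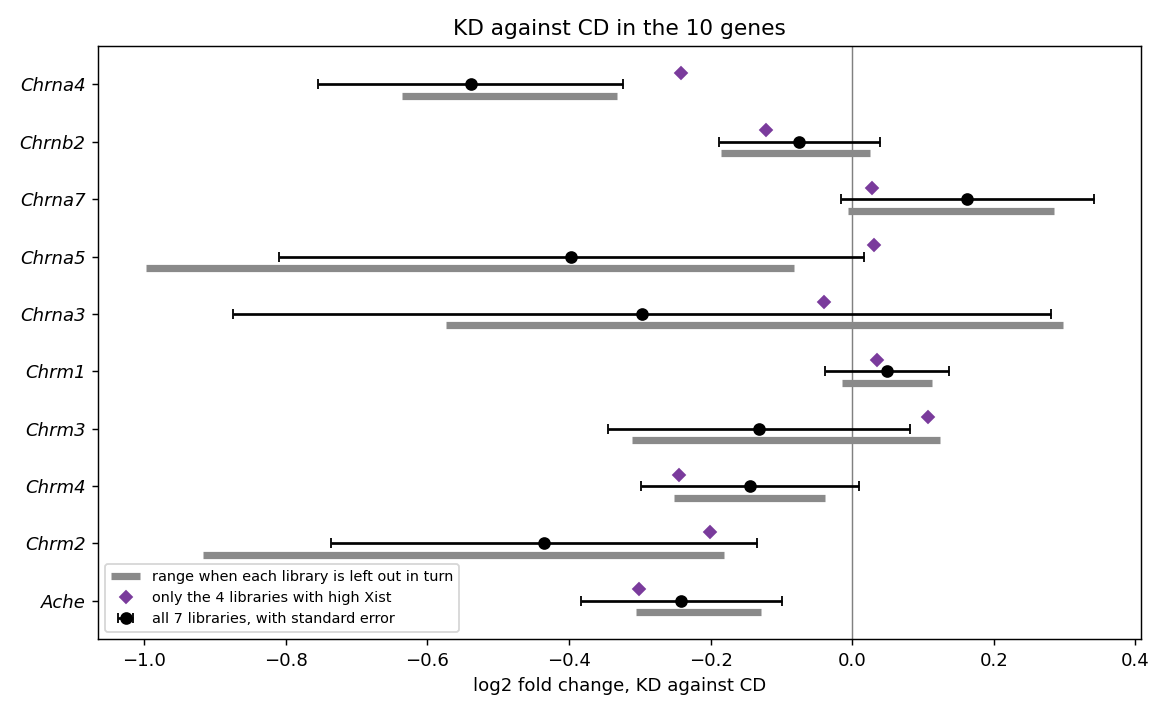
Log2 fold change of KD against CD for each of the 10 genes from edgeR, with its standard error over all 7 libraries (black), the range when each library is left out in turn (grey bar) and the value in the 4 libraries with high Xist (diamond). The grey bars cross 0 for Chrna3, Chrna7, Chrnb2, Chrm1 and Chrm3.

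The most extreme value of a gene was often in the same library. CD replicate 4 was the highest of the 7 libraries for 5 genes (Chrna3, Chrna4, Chrna5, Chrnb2 and Ache), and KD replicate 3 the lowest for 4 (Chrna4, Chrna5, Chrm2 and Chrm3) and the highest for 2 (Chrna7 and Chrm1). Marker lists of other regions moved in the same libraries. In CD replicate 4 the 7 thalamus markers summed to 231 CPM, beside 78.0 to 92.2 CPM in the other CD libraries and 67.6 to 136 CPM in KD, and 5 of the 7 were highest there. The 5 olfactory bulb markers summed to 60.96 CPM in CD replicate 4, beside 4.68 to 8.14 CPM in the other CD libraries and 3.51 to 17.0 CPM in KD. Most of the thalamus sum in that library was Slc17a6 (167 CPM), while Tnnt1 was lower there (1.42 CPM) than in any other library. KD replicate 3 had the next highest thalamus sum (136 CPM), with Slc17a6 at 103 CPM. Of the 7 thalamus markers, 0 were highest and 3 were lowest in KD replicate 3.

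In KD replicate 3 the 8 striatal markers summed to 332 CPM, beside 128 to 197 CPM in CD and 171 to 181 CPM in the other KD libraries, with 6 of the 8 highest there. The 8 markers of ventral forebrain and amygdala summed to 116 CPM in KD replicate 3 and to 7.64 to 27.6 CPM elsewhere, with 7 of the 8 highest there. Baiap3 alone made up 67.9 CPM of that sum. Zic1 was highest in CD replicate 4 (20.2 CPM, beside 6.60 CPM in KD replicate 3). Otp was at 0 counts in 5 of the 7 libraries. Oligodendrocyte markers were low in CD replicate 3 (1028 CPM) and KD replicate 3 (1074 CPM) beside 2008 to 4006 CPM in the others. The part of these differences in the values of the 10 genes was not tested. Without both libraries that stood apart, the median log2 fold change of the 10 genes was −0.11, with 7 below 0, and in the 4 libraries with high Xist it was −0.08, with 6 below 0.

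**Figure D4:**
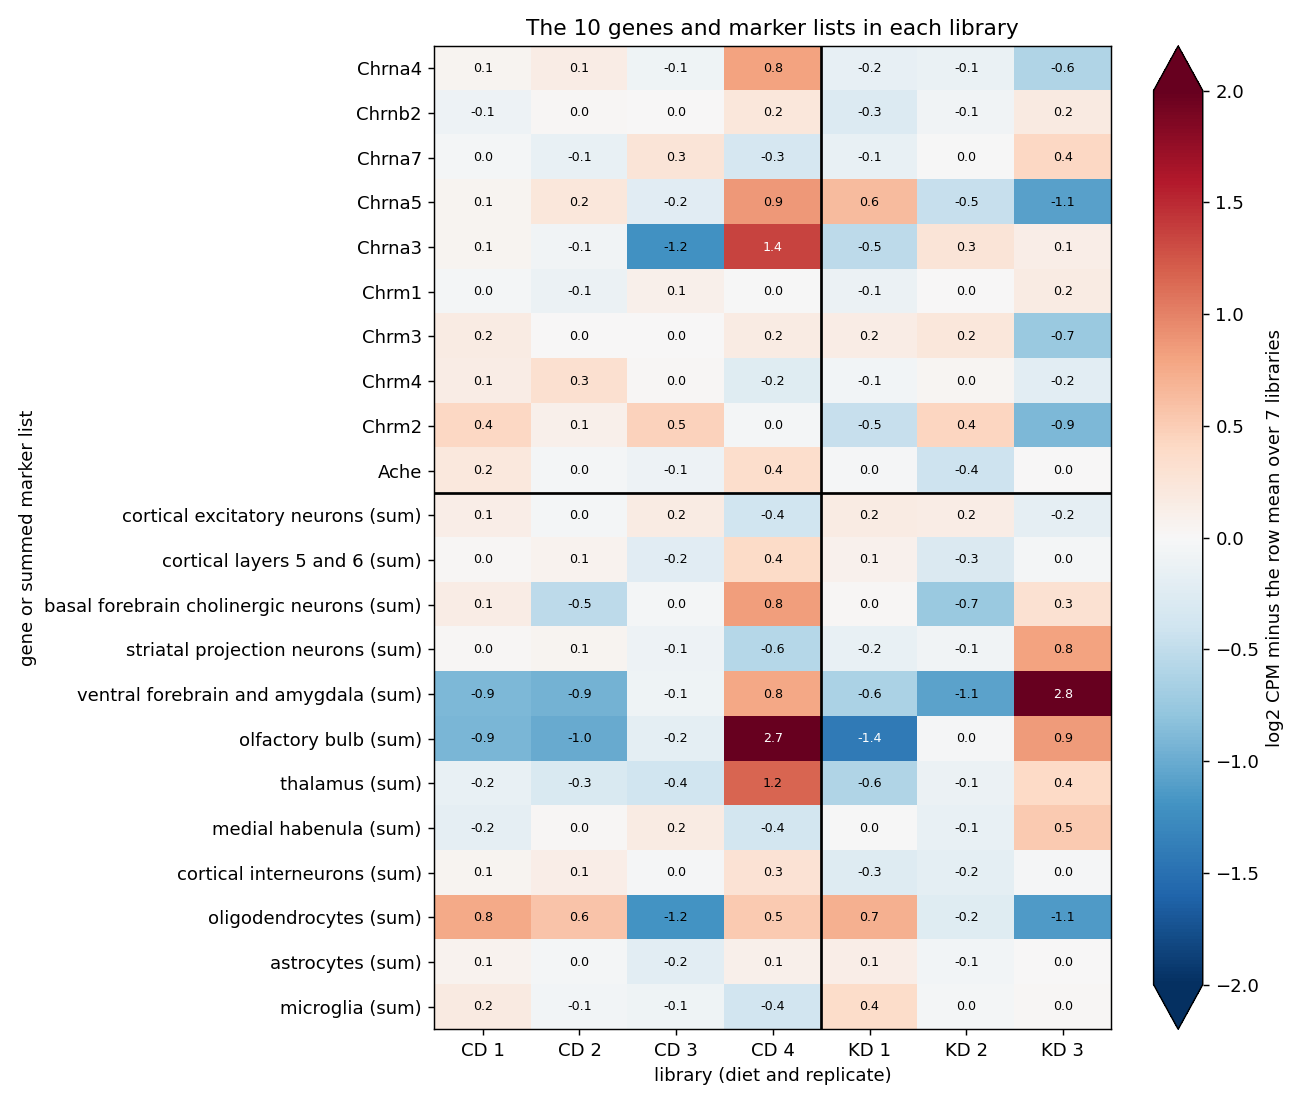
Difference of each gene's or summed marker list's log2 CPM from its mean over the 7 libraries, by library, with red above and blue below the mean (colours end at 2 and −2). CD replicate 4 is high for Chrna4, Chrna5 and Chrna3 and for thalamus and olfactory bulb markers, and KD replicate 3 is low for Chrna5, Chrm2, Chrm3 and Chrna4 and high for striatal and ventral forebrain markers.

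The rest of the cholinergic system was followed with 49 further genes listed by function, of which 40 were tested. By edgeR's quasi-likelihood test 1 of the 40 had a raw p of at most 0.01 (Chrna1), as had 0.321% of all tested genes. A raw p under 0.05 was found for 2 (Chrna1 and Lypd1), as for 3.19% of all tested genes, and 0 had an adjusted p under 0.05. The diets' CPM ranges were apart for 2 of the 40, as for 4.2% of all tested genes. A log2 fold change below 0 was found for 20 and above 0 for 20, with a median of −0.0025.

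Of the 12 other receptor genes 6 were tested, 3 on each side of 0. Chrna1, the alpha subunit of the muscle receptor, had 1.54, 2.44, 1.98 and 2.76 CPM in CD and 0.898, 1.35 and 0.808 CPM in KD, from 18 to 101 counts in a library. The diets did not overlap, and KD was lower, with a log2 fold change of −1.07 (standard error 0.32), a raw p of 0.01 and an adjusted p of 0.979 in edgeR's quasi-likelihood test. Its raw p was above 0.01 in 5 of the 7 fits that left out 1 library, and the log2 fold change was −0.79 without CD replicate 4 and KD replicate 3. Chrna2 had 0.655 to 1.40 CPM in CD and 0.428 to 2.34 CPM in KD. Chrna6, a subunit of dopamine neurons, had 0.0819 to 1.94 CPM in CD and 0.314 to 1.29 CPM in KD. Chrm5, the muscarinic receptor of the ventral midbrain, had 4.71 CPM in KD replicate 3 and 0.118 to 0.792 CPM in the other 6 libraries, and its log2 fold change turned from 1.78 (standard error 1.09) to −1.37 without KD replicate 3.

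The genes of acetylcholine synthesis and storage were low apart from Slc44a1, and 3 of the 4 were tested, all 3 with log2 fold changes below 0 and none at a raw p under 0.05. Chat, which makes acetylcholine, had 0.246 to 0.885 CPM in CD and 0.180 to 0.513 CPM in KD, from at most 29 counts in a library. Slc18a3, the vesicular transporter, had at most 9 counts and was not tested. Slc5a7, the high-affinity choline transporter, had 0.903 to 2.59 CPM in CD and 1.29 to 2.35 CPM in KD. Slc44a1, a choline transporter of many cell types, had 67.8 to 118 CPM in CD and 58.3 to 113 CPM in KD, and its lowest libraries were CD replicate 3 and KD replicate 3, those with the lowest oligodendrocyte markers.

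Of the genes beside Ache that split acetylcholine or anchor the enzyme, Bche, butyrylcholinesterase, had 28.0 CPM in CD replicate 4 and 6.55 to 10.6 CPM in the other 6 libraries, with a log2 fold change of −0.61 (standard error 0.43) that was −0.04 without CD replicate 4. Prima1, the membrane anchor of the brain enzyme, had 0.122 to 0.741 CPM in CD and 0.314 to 0.684 CPM in KD. Colq, the collagen tail of the muscle enzyme, had at most 9 counts and was not tested.

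Of the 10 nicotinic chaperones and Ly6 modulators 9 were tested. Lypd1, a Ly6 protein that damps nicotinic receptors, had 48.9 CPM in KD replicate 3 and 3.59 to 9.43 CPM in the other 6 libraries. KD was higher by 1.73 on the log2 scale (standard error 0.72), with a raw p of 0.041 and an adjusted p of 0.979 in edgeR's quasi-likelihood test. Without CD replicate 4 and KD replicate 3 it was 0.18. Exons of Lypd1 share 1202 bases with Gpr39 on the other strand. Lynx1, which restrains nicotinic receptors of the adult cortex, had 462 to 654 CPM in CD, 484 and 532 CPM in KD replicates 1 and 2, and 239 CPM in KD replicate 3. Its log2 fold change was −0.43, with a raw p of 0.14 and an adjusted p of 0.979 in edgeR's quasi-likelihood test. With KD replicate 3 left out the log2 fold change was −0.14. Including Xist in the model gave −0.56, with a raw p of 0.0034 in edgeR's quasi-likelihood test. In that fit 0 of the 40 genes had an adjusted p under 0.05. Ly6h had 59.8 CPM and Tmem35a, the chaperone of Chrna7 receptors also called NACHO, had 150 CPM in KD replicate 3, in each case the highest of the 7 libraries.

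Ric3, another chaperone, was even across libraries at 157 to 194 CPM. Rapsn, the anchor of the muscle receptor, had the lowest log2 fold change of the list (−1.25, standard error 0.65) from at most 29 counts in a library. The 20 genes of muscarinic coupling and effectors, all tested, had log2 fold changes from −0.14 (Kcnj6, a potassium channel subunit opened by Gi-coupled receptors) to 0.27 (Grk5, a kinase that desensitises receptors), with a median of 0.0044 and none at a raw p under 0.05. Grk6, picked after its values were seen, was the only gene of that group whose diets did not overlap, and its lowest CD value (64.84 CPM) barely exceeded its highest KD value (64.79 CPM).

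**Figure D5:**
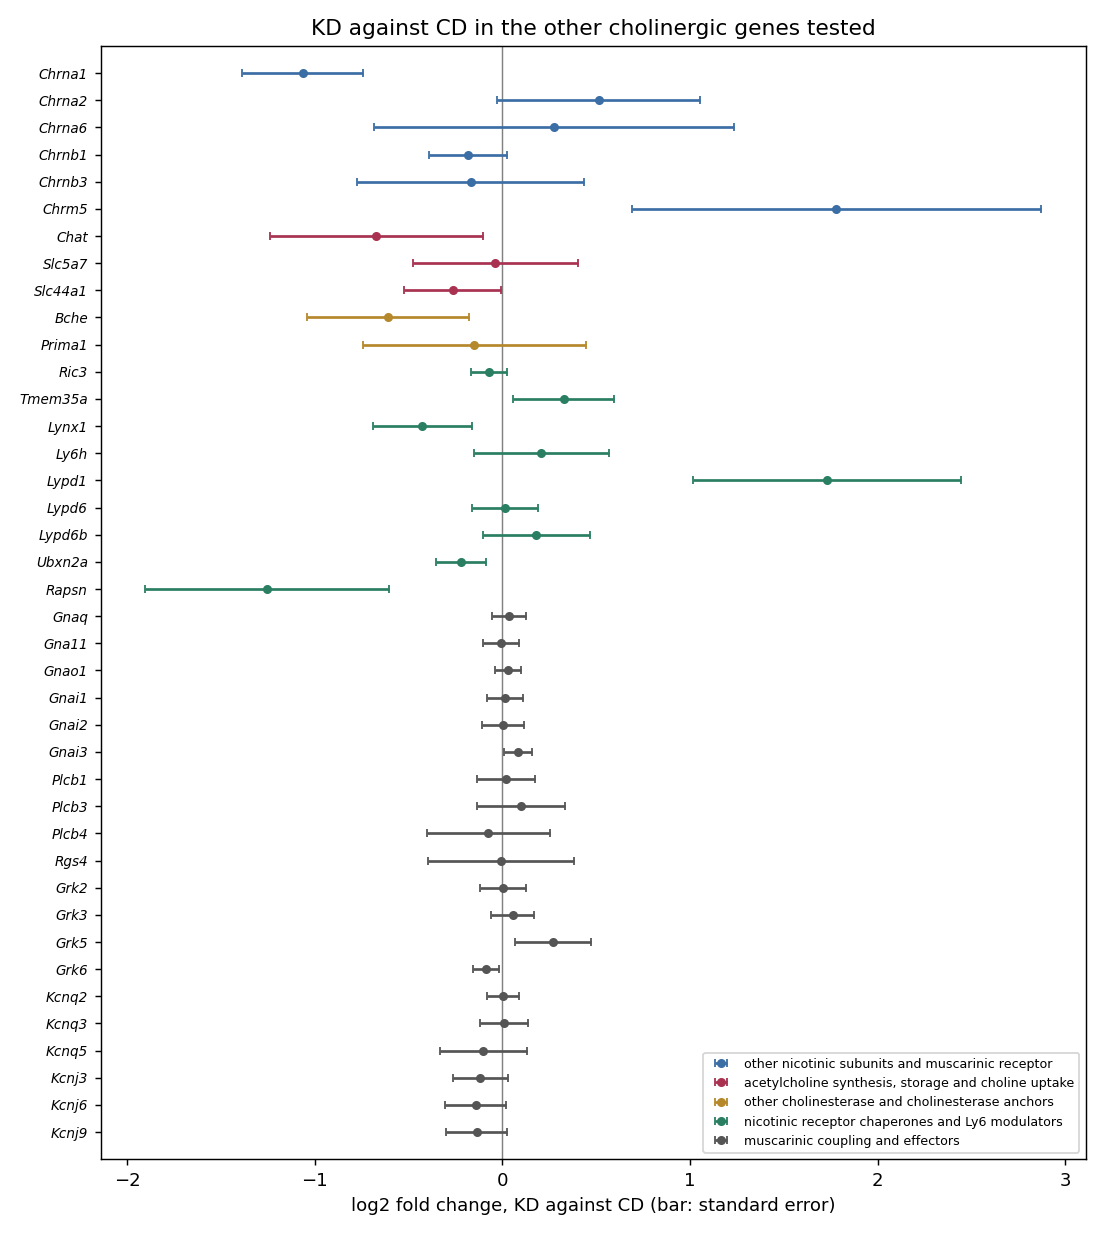
Log2 fold change of KD against CD with its standard error for the 40 tested cholinergic genes outside the 10, coloured by functional list. The values lie on both sides of 0, genes of muscarinic coupling lie within 0.27 of 0, and the widest departures are Chrm5, Lypd1, Rapsn and Chrna1.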

How the data were processed

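Cortex RNA of 7 mice was sequenced in 50-bp paired-end mode from stranded total RNA libraries, starting from 10 mg of frozen tissue per mouse. The authors aligned reads to mm10 with STAR and deposited raw counts per gene symbol for each mouse, neither normalized nor pooled. The sources used here do not give the version of STAR, the gene annotation or how strand was handled in counting. Groups came from the sample titles. Nothing in the labels says how replicate numbers were given. For samples with the same number, deviations from the diet means had correlations of 0.251, 0.195 and 0.098. Xist was high in replicates 1 and 2 of both diets and low in replicate 3 of both. Whether the number stands for a shared batch or sex was not tested.

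From these counts, edgeR 4.0.16 in R 4.3.3 was run over the whole table (filterByExpr, TMM with factors from 0.978 to 1.04, estimateDisp, glmQLFit with robust=TRUE, glmQLFTest), with Benjamini-Hochberg adjustment over 15881 genes, and was tested on simulated data. CPM were taken from library totals. Lengths were unions of exons in GENCODE M21, to which 21741 symbols (92.9%) matched. Symbols Tmem35a, Grk2 and Grk3 stand in the files under older names. Alternatives were RLE scaling, library size alone, filters of at least 1 count and of at least 1 CPM in 3 libraries, the likelihood-ratio test, DESeq2 1.42.0, Xist as a covariate, a replicate block and leaving out each library. The genes and lists were chosen with earlier results of these data known. All 10 genes are named, as are, by a written rule, 15 set cholinergic genes and, from each further list, those with a raw p under 0.05 or the largest change in each direction. P-values measure the spread between single mice. A marker gene of the list for basal forebrain cholinergic neurons is not reported here.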

Additional observations from a re-analysis of the deposited data

Results flagged for a closer look

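In the 4 CD libraries, 22 values (the 10 genes and 12 marker lists, on the log2 CPM scale) were examined for a library whose gap to the nearest other exceeds Dixon's critical value as a share of the range. Chance would give 1.1 such values, and 2 were found, both in marker lists. The thalamus marker sum was high in CD replicate 4, at 7.85 log2 CPM beside 6.29 to 6.53 in CD replicates 1 to 3 (0.847 of the range). The oligodendrocyte marker sum was low in CD replicate 3, at 10.0 log2 CPM beside 11.7 to 12.0 in the others (0.881 of the range). None of the 10 genes passed the critical value, Chrna4 included. Groups of 3, as KD is, were not examined.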

How the results depend on the processing

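For the 10 genes, the median log2 fold change of −0.193 stayed below 0 in every alternative run, from −0.237 to −0.132 when 1 library was left out, −0.181 with the replicate block and −0.081 in the 4 libraries with high Xist (chosen after seeing the data). Chrna3, Chrna5, Chrna7, Chrnb2, Chrm1 and Chrm3 had the other sign in 1 to 3 of their alternatives. For all genes, the count of 51 at a raw p of at most 0.01 was 103 by the likelihood-ratio test, 120 by DESeq2, 209 with Xist as a covariate, 182 with the replicate block, 19 (without CD replicate 1) to 211 (without CD replicate 3) when 1 library was left out, and 420 in the libraries with high Xist; the cause was not tested. Other scalings and filters kept it within 1.5 times. For the other cholinergic genes, the count of 1 (Chrna1) was 2 with Xist as a covariate (Lypd1 and Lynx1, with Chrna1 lost), 0 with the replicate block, 0 to 3 when 1 library was left out, and 0 without CD replicate 4 and KD replicate 3 (chosen after seeing the data). For the order of levels, 6 of 9 pairs passed, 4 with the longest transcript as length, 0 with the longer Chrm4 and 0 to 6 when 1 library was left out, where 6 libraries allow no exact p under 0.03125. With 493 to 2149 counts of Chrna4 per library, counting error is small beside the spread between mice, and Chrna3, at 7 to 46 counts, carries both.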
